A study of Mus musculus with 30 samples.

Results

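The 34 genes described here encode the protein folding machinery of the endoplasmic reticulum (ER) and the unfolded protein response that controls it. They were listed by name and kept if the counts of all libraries summed to more than 14, and 34 of 34 passed, among 20139 of 54232 genes that did. The lowest sum was 6411 counts, for Sdf2l1, so no member was near the limit. Each member was matched by its symbol to 1 mouse gene with counts. A second identifier with the symbol Ddit3 had 0 counts in every library and was not used.

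Secretory and membrane proteins enter the ER through the Sec61 channel, and are folded there by chaperones of the HSP70 and HSP90 families, by the lectins calnexin and calreticulin and by protein disulfide isomerases. When unfolded proteins accumulate, the sensors PERK (Eif2ak3), IRE1α (Ern1) and ATF6 act through the transcription factors ATF4, spliced XBP1 and cleaved ATF6, which raise chaperones and the components of ER-associated degradation. The response is active in secretory cells and in fat cells that differentiate or are overloaded with lipid. Much of it runs through splicing, phosphorylation and cleavage, which counts per gene do not measure.

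The mouse preadipocyte line 3T3-L1 was sequenced in 6 groups of 5 libraries. All cells were kept in adipogenic medium with insulin, dexamethasone, isobutylmethylxanthine and indomethacin. Control cells had no further agent, and the other groups received 0.7 µM pNaKtide, 100 µM indoxyl sulfate (IS), IS with pNaKtide, 50 µg/mL oxidized low-density lipoprotein (oxLDL), or oxLDL with pNaKtide. IS is a protein-bound uremic toxin, oxLDL a source of oxidant stress, and pNaKtide a cell-permeant peptide that blocks Na,K-ATPase signaling through Src. The labels give 5 days of treatment and the study's methods a shorter one, and the labels name 3T3 cells although their extraction text speaks of adipose tissue. Whether the libraries of a group came from separate cultures is not said, so p-values measure the spread between these libraries of 1 cell line, which may be technical.

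Between 6945498 and 15159877 counts per library fell on genes, with a median of 11524210. All 10 adipocyte markers and all 9 preadipocyte and fibroblast markers had counts, with summed levels of 11684 to 16742 and 3832 to 6839 counts per 1000000 counts of the library (CPM). Values of the members are CPM after TMM normalization, and a member is said to rise or fall where the adjusted p was below 0.1. Of 7 macrophage markers, Ptprc, Itgam and Tyrobp were at 0 counts in all libraries, while Cd68 had 3.29 to 6.66 and Cd14 3.38 to 6.01 CPM and the list summed to 7.11 to 12.8 CPM, and the 5 endothelial markers summed to at most 0.660 CPM. Libraries differed in their trend of counts over the GC content of genes, by slopes of -0.44 to 0.70 log2 units per 10 points of GC content. The group medians were 0.27 in Control, 0.26 with pNaKtide, 0.19 with oxLDL + pNaKtide, -0.12 with IS + pNaKtide, -0.28 with IS and -0.35 with oxLDL. The slope thus went with the treatment, and the parts of slope and treatment in a change cannot be told apart here. Control replicate 1 had a slope of -0.21, where the other Control libraries had 0.02 to 0.36, IS replicate 4 had 0.29, where the other IS libraries had -0.38 to -0.21, pNaKtide replicate 3 had -0.14, where the other pNaKtide libraries had 0.24 to 0.30, and oxLDL + pNaKtide replicate 4, the library with the fewest counts, had 0.70, where the others of its group had 0.11 to 0.37. Counts of members called without these libraries are given for several comparisons, and otherwise as ranges over fits without 1 library.

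Of the members, 8 carried in their promoter the ER stress response element (ERSE), the best known site of ATF6 and XBP1. It was searched on both strands as CCAAT, 9 bases of any kind and CCACG, in the 250 bases before and 50 bases after a gene's start in RefSeq (GRCm38.p6), and 29 of 34 members had an entry. Of those, 8 held a match, or 27.6%, against 37 of all 27025 genes with an entry, or 0.137% (0.119% of all 32851 promoters). Entries were missing for Manf, Derl1, Hyou1, Sec61a1 and Atf6. The 8 matches are shown because these members turn up on different sides of the comparisons below. Each line runs 5′ to 3′ on the gene's strand, with the match in capitals. A match that reads CGTGG first lies on the other strand. The match of Hspa5 overlaps an exon of a longer gene model of GENCODE M21, and the other 7 lie outside the gene models.
Hspa5, chr2:34772010-34772058 (+ strand): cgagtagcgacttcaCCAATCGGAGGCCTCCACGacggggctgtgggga
Calr, chr8:84847060-84847108 (- strand): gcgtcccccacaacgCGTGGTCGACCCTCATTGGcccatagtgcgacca
Hsp90b1, chr10:86705518-86705566 (- strand): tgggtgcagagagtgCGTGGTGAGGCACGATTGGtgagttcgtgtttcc
Canx, chr11:50325785-50325833 (- strand): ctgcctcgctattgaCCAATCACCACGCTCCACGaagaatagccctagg
Pdia6, chr12:17266476-17266524 (+ strand): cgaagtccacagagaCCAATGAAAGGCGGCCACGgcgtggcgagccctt
Dnajc3, chr14:118937812-118937860 (+ strand): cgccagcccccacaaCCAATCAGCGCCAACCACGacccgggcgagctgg
Creld2, chr15:88819505-88819553 (+ strand): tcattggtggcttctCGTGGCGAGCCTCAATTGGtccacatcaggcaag
Syvn1, chr19:6046517-6046565 (+ strand): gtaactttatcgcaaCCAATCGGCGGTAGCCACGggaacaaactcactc

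Hsp90b1 held a second match, with its first base 212 bases before the start, and in the 8 sequences shown the first base lay 44 (Syvn1) to 162 (Calr) bases before it. The related ERSE-II, searched as ATTGG, 1 base of any kind and CCACG, was found in Herpud1 and Dnajb11, against 0.0365% of all promoters. In Herpud1 it lay 52 bases before the start, shown with its match in capitals at chr8:94386362-94386402 (+ strand).
Herpud1: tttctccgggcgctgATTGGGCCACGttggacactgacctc
The letters TGATG, 1 base of any kind and AA, which part of the sites of ATF4 share, were found in Trib3 and Herpud1 (3.97% of all promoters). These are 2 of 29 members with an entry, or 6.90%, beside 4.51% of all genes, and the match of Trib3 lay after the start. The motifs do not overlap each other in these windows. A match describes the sequence and not binding.

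The levels of the members spanned a wide range. Compared per length, as FPKM in Control cells, Calr had 654 ± 90.9 and P4hb 597 ± 78.7 (SD, n = 5), and these calcium-binding and disulfide-forming proteins of the ER lumen overlapped in range. Hspa5, which encodes the HSP70 chaperone BiP, followed with 293 ± 12.3 FPKM, below both and above Pdia3 at 164 ± 10.4 without overlap. The sensors were at the low end, with Atf6 at 6.74 ± 0.652, Eif2ak3 at 3.90 ± 0.541 and Ern1 at 2.36 ± 0.552 FPKM, and the last did not overlap its neighbours. Over most of the order, from Derl1 (90.2 FPKM) to Dnajb11 (38.7 FPKM) and from Sec61b (32.0 FPKM) to Derl2 (6.32 FPKM), each member overlapped the next.

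**Figure D1:**
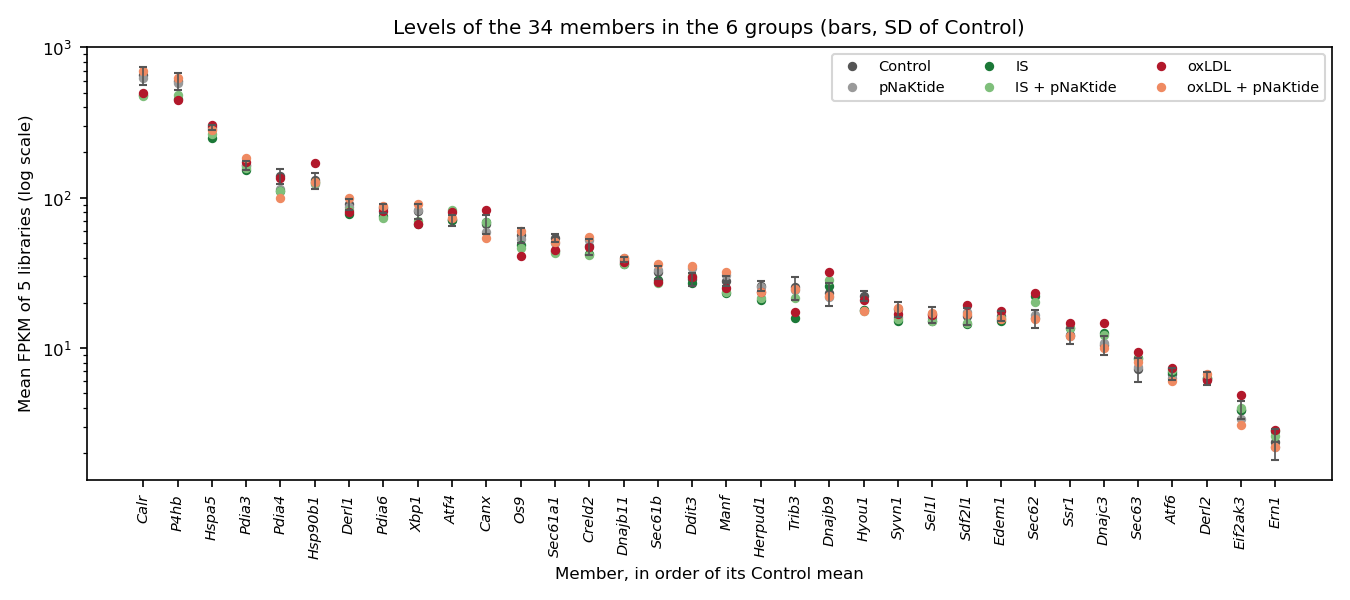
Mean FPKM (log scale) of the 34 members in the 6 groups, in the order of their Control means, with bars for the SD of the 5 Control libraries. Levels fall from 654 for Calr to 2.36 for Ern1, and the 6 groups lie close together beside that range.

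The first question was whether oxLDL changed these genes. With oxLDL, 8 members rose and 6 fell against Control, 41.2% of the members, while 36% of all genes tested were called (18.1% higher and 18% lower). The median log2 fold change of the members was -0.01 and that of all genes 0.04 on the log2 scale. With scaling by library size alone 14 members were higher and 6 lower, beside 35.9% of all genes called, and the median of all genes was 0.17. Sec62, Dnajc3, Dnajb9 and Hsp90b1 rose most, and Trib3, Os9, P4hb and Calr fell most. In bulk RNA a change in the share of a cell type and a change of RNA per cell cannot be told apart. In the same comparison 3 of 10 adipocyte markers, 2 of 9 preadipocyte and fibroblast markers and 1 of the 3 macrophage markers tested were lower, 1 preadipocyte and fibroblast marker was higher, and their part was not tested.

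Among the 9 HSP70 and HSP90 chaperones and their helpers, 3 rose and 0 fell. Hspa5 (ENSMUSG00000026864, chr2:34771970-34777547, GRCm38), the chaperone most used to read the response, did not pass. It measured 1283, 1211, 1335, 1199 and 1248 CPM in Control replicates 1 to 5, and 1280, 1250, 1328, 1308 and 1335 CPM with oxLDL. The groups overlapped, and edgeR's quasi-likelihood test gave 0.05 on the log2 scale with SE 0.08 and an adjusted p = 0.679.

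Dnajc3, a J-domain co-chaperone of BiP that also restrains PERK, had 67.5, 53.0, 54.4, 49.3 and 48.7 CPM in Control. With oxLDL it had 80.8, 84.1, 66.0, 69.5 and 83.9 CPM, and only Control replicate 1 reached into the oxLDL range. It rose by 0.49 (SE 0.11, adjusted p = 0.00724, edgeR). Dnajb9, another J-domain partner of BiP, also rose by 0.49 (adjusted p = 0.0194, edgeR), and Hsp90b1, the HSP90 of the ER, by 0.39 (adjusted p = 0.017, edgeR). Hsp90b1 had 463 to 617 CPM in Control and 632 to 771 CPM with oxLDL, so its groups did not overlap. None of the 3 rises was called when the GC and length trend was taken out, with values of 0.09 for Dnajc3, 0.05 for Dnajb9 and -0.02 for Hsp90b1 (adjusted p = 0.34, 0.746 and 0.879, edgeR). The remaining 6, among them Hyou1, Manf and Creld2, had log2 fold changes of -0.15 to 0.25. Of these, Sdf2l1, a partner of the ER J-domain proteins, and Creld2 were called higher in the fit without that trend, at 0.65 and 0.30 (adjusted p = 0.0114 and 0.00903, edgeR).

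Of the 6 lectin chaperones and disulfide isomerases, 1 rose and 2 fell. Canx, the membrane lectin calnexin, had 382, 283, 349, 274 and 305 CPM in Control and 385, 417, 383, 368 and 424 CPM with oxLDL. It rose by 0.31 (SE 0.11, adjusted p = 0.0408, edgeR), and Control replicate 1 alone reached past the lowest oxLDL library. The call was lost without Control replicate 2 or 4 (adjusted p up to 0.127, edgeR), and with the GC and length trend taken out Canx was called lower, at -0.13 (adjusted p = 0.0831, edgeR). P4hb, the classical protein disulfide isomerase, had 1329, 1806, 1841, 1907 and 1763 CPM in Control.

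With oxLDL, P4hb had 1260, 1146, 1459, 1444 and 1191 CPM, below each Control library but replicate 1. It fell by 0.41 (SE 0.11, adjusted p = 0.011, edgeR). Calr, the soluble lectin calreticulin, fell alongside by 0.38 (SE 0.12, adjusted p = 0.0222, edgeR), from 1905 ± 268 to 1466 ± 203 CPM (SD, n = 5). Pdia3, Pdia4 and Pdia6 were not called, with log2 fold changes of 0.08, -0.05 and -0.05.

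Of the 5 genes of translocation into the ER, 3 rose and 1 fell. Sec62, an accessory protein of the channel, had 85.1, 62.8, 70.8, 61.5 and 66.2 CPM in Control and 100.0, 119, 102, 84.3 and 108 CPM with oxLDL. Its rise of 0.57 (SE 0.12, adjusted p = 0.00702, edgeR) was the largest of any member in this fit, and Control replicate 1 alone reached past the lowest oxLDL library. Its partner Sec63 rose by 0.38 and the translocon-associated Ssr1 by 0.27 (adjusted p = 0.0181 and 0.0238, edgeR). Sec61a1, the pore itself, had 327, 381, 367, 386 and 381 CPM in Control and 308, 294, 306, 338 and 297 CPM with oxLDL, and fell by 0.26 (SE 0.08, adjusted p = 0.0177, edgeR). Sec61b, its small partner subunit, was not called at -0.20. With the GC and length trend taken out Sec62 and Ssr1 were not called, at 0.06 and 0.00, and Sec63 was called lower, at -0.22 (adjusted p = 0.0646, edgeR).

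Of the 7 sensors and transcription factors, 1 rose and 2 fell. Eif2ak3 (ENSMUSG00000031668, chr6:70844515-70905245), the kinase PERK, had 29.3, 22.5, 20.9, 22.4 and 23.6 CPM in Control and 32.8, 30.2, 25.3, 30.4 and 30.9 CPM with oxLDL. It rose by 0.33 (SE 0.11, adjusted p = 0.025, edgeR), with an overlap only through Control replicate 1 and oxLDL replicate 3. Xbp1 (ENSMUSG00000020484, chr11:5520659-5525893), whose spliced mRNA encodes the active factor, had 215, 276, 294, 276 and 286 CPM in Control.

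With oxLDL, Xbp1 had 217, 204, 238, 230 and 208 CPM, which was below all Control libraries but replicate 1. Its total counts fell by 0.30 (SE 0.09, adjusted p = 0.0137, edgeR), and splicing was not measured. Trib3, a pseudokinase that is a target of ATF4 and CHOP, had 38.2, 56.2, 55.2, 61.7 and 62.1 CPM in Control and 40.6, 33.6, 33.6, 47.6 and 33.5 CPM with oxLDL. It fell by 0.53 (SE 0.11, adjusted p = 0.00736, edgeR), the largest fall among the members in this fit. Control replicate 1 was inside the oxLDL range.

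Atf4, the factor downstream of PERK, had 184, 152, 168, 156 and 184 CPM in Control and 199, 180, 182, 210 and 188 CPM with oxLDL, and the 0.19 log2 units between them did not pass (SE 0.11, adjusted p = 0.205, edgeR). With the GC and length trend taken out Atf4 stood at 0.42 and was called higher (adjusted p = 0.0563, edgeR). Ddit3, which encodes the stress factor CHOP, had 46.3, 48.0, 44.1, 54.8 and 56.0 CPM in Control and 52.0, 50.4, 47.2, 60.8 and 49.5 CPM with oxLDL. Its groups overlapped, at 0.06 (SE 0.10, adjusted p = 0.696, edgeR). The sensors Atf6 and Ern1 were not called, at 0.13 and 0.29, but without the GC and length trend Atf6 was called lower, at -0.20, and Ern1 higher, at 0.32 (adjusted p = 0.0348 and 0.0651, edgeR).

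Of the 7 genes of ER-associated degradation, which returns misfolded proteins to the cytosol, 1 fell and 0 rose. Os9, a lectin that delivers substrates to the ubiquitin ligase, had 128, 167, 137, 157 and 162 CPM in Control and 111, 103, 104, 123 and 107 CPM with oxLDL. Each oxLDL library was below each Control library, and Os9 fell by 0.45 (SE 0.13, adjusted p = 0.0131, edgeR), but stood at -0.18 and was not called without the GC and length trend (adjusted p = 0.143, edgeR). Herpud1, Sel1l, Syvn1, Edem1, Derl1 and Derl2 lay between -0.17 and 0.11. Os9 and Hsp90b1 were the 2 members whose groups did not overlap, against 8.35% of all genes.

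**Figure D2:**
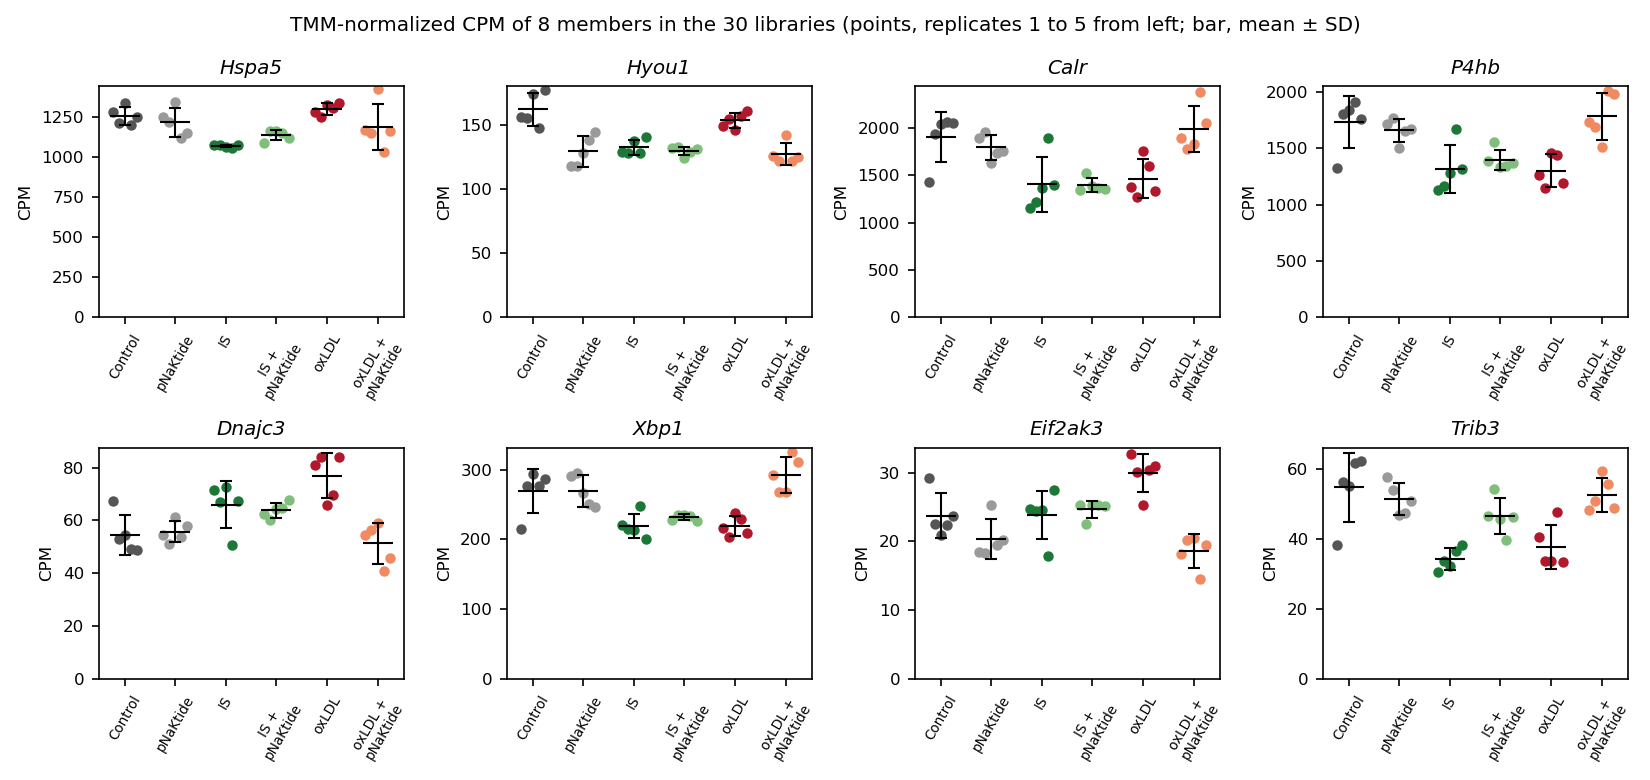
TMM-normalized CPM of 8 members in each of the 30 libraries (points, replicates 1 to 5 from the left), with bars for the mean ± SD of 5 libraries per group. The oxLDL libraries lie low for P4hb, Calr, Xbp1 and Trib3 and high for Dnajc3 and Eif2ak3, and the IS libraries of Hspa5 lie within 1058 to 1076 CPM.

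The direction of these changes followed the GC content of the genes. The 8 members that rose with oxLDL had a median GC content of 42.7% and the 6 that fell 52.9%, and over the 34 members r between change and GC content was -0.66, beside -0.70 over 12533 other genes. These points share libraries and are a description. When the trend of each library over GC content and length was taken out of the fit, 6 members were higher and 10 lower with oxLDL, where 19.0% of all genes were called. Of the 14 calls 6 remained, and the called members Hsp90b1, Canx and Sec63 changed sign. Calls were gained by Sdf2l1, Creld2, Sec61b (0.15), Ern1 and Atf4, which were higher, and by Atf6, Derl1 (-0.17) and Derl2 (-0.41), which were lower. Calr (-0.32), P4hb (-0.21), Sec61a1 (-0.23), Eif2ak3 (0.41), Xbp1 (-0.19) and Trib3 (-0.22) kept their direction and their call, and they also kept it in each fit without 1 library. Without Control replicate 1 alone, 20 members were called, beside 45.9% of all genes. With Control replicate 1 and IS replicate 4 both left out, 22 members were called (12 higher and 10 lower), beside 47.6% of all genes.

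**Figure D3:**
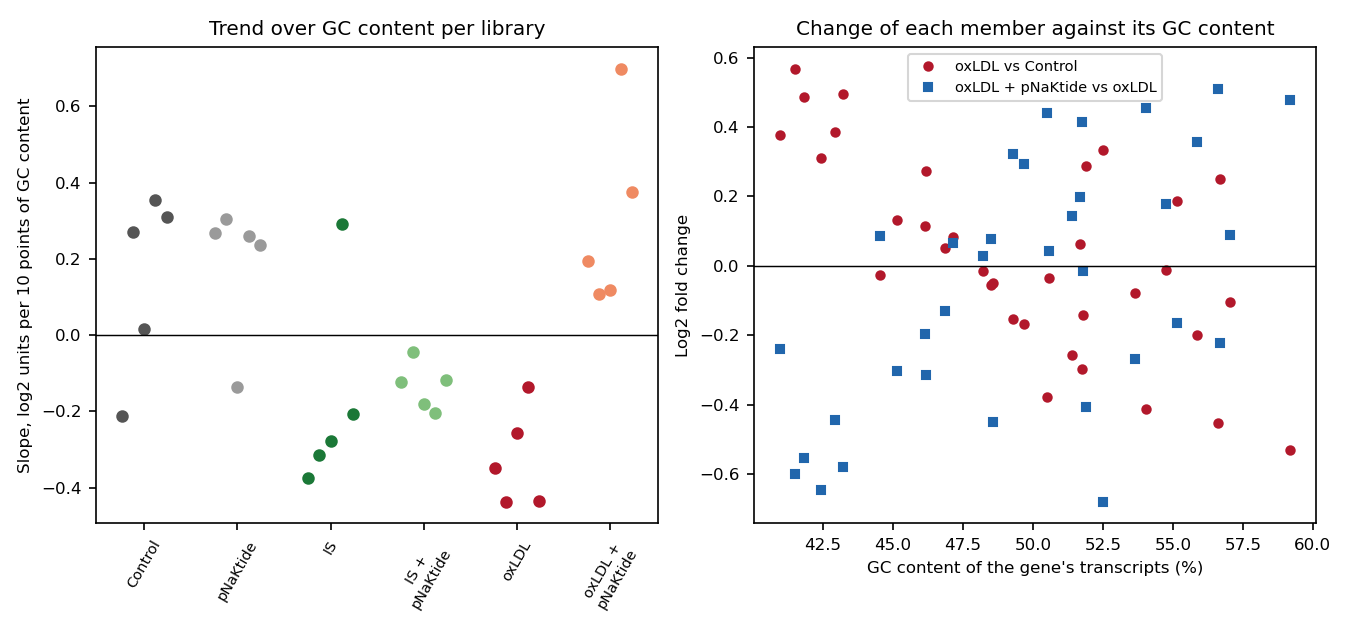
Left, slope of log2 counts over GC content in each library (points, by group). Right, log2 fold change of each of the 34 members against its GC content (%), with oxLDL against Control falling (r = -0.66) and oxLDL + pNaKtide against oxLDL rising (r = 0.59).

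The second question was what pNaKtide did to cells under oxLDL. In the comparison of oxLDL + pNaKtide with oxLDL, 9 members rose and 13 fell, 64.7% of the members beside 48.3% of all genes (22.1% higher and 26.1% lower). With scaling by library size alone 5 members were higher and 19 lower, beside 51.5% of all genes called. The median over all genes went from -0.09 to -0.30 on the log2 scale. For 16 members the groups did not overlap, which held for 28.4% of all genes. The comparison uses the same oxLDL libraries as the one above, so values that are high with oxLDL weigh on both, and each is given for itself. In the same comparison 6 of 10 adipocyte markers were higher and 0 lower, with a median log2 fold change of 0.36, 2 of 9 preadipocyte and fibroblast markers were higher and 3 lower, and their part in the changes of the members was not tested.

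PERK and calnexin changed most. Eif2ak3 had 18.2, 20.3, 20.4, 14.6 and 19.5 CPM with oxLDL + pNaKtide, below the lowest oxLDL library at 25.3 CPM. It fell by 0.68 (SE 0.11, adjusted p = 3.69e-05, edgeR), and by 0.69 when the GC and length trend was taken out. Canx had 249, 262, 312, 191 and 247 CPM, below each oxLDL library, and fell by 0.65 (SE 0.11, adjusted p = 6.2e-05, edgeR), but stood at -0.03 without the trend. Of the other sensors and factors, Ern1 fell by 0.41 and Atf6 by 0.30 (adjusted p = 0.035 and 0.00554, edgeR). Ern1 was not called without oxLDL + pNaKtide replicate 3 or 4 (adjusted p up to 0.14, edgeR), and without the trend Atf6 was called higher, at 0.19 (adjusted p = 0.0175, edgeR).

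Xbp1 had 291, 267, 268, 325 and 311 CPM with oxLDL + pNaKtide, above each oxLDL library. Its rise of 0.42 (SE 0.09, adjusted p = 0.000263, edgeR) went with a rise of Trib3 by 0.48 (SE 0.11, adjusted p = 0.00125, edgeR). Trib3 had 48.2, 50.9, 59.4, 55.8 and 48.8 CPM, all above the oxLDL libraries, but without the trend it stood at 0.08 and was not called (adjusted p = 0.52, edgeR). Atf4 had 154, 153, 234, 171 and 144 CPM and Ddit3 51.0, 61.1, 75.9, 65.6 and 45.0 CPM, and neither passed (-0.17 and 0.20, adjusted p = 0.237 and 0.123, edgeR). Replicate 3 was the highest library in both and lay above the oxLDL range, as did replicates 2 and 4 for Ddit3. Without the trend Atf4 was called lower, at -0.47 (adjusted p = 0.0141, edgeR), and Ddit3 stood at -0.01.

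Among the chaperones, 4 fell and 2 rose. Dnajc3 had 54.7, 56.5, 59.0, 40.7 and 45.7 CPM, below each oxLDL library, and fell by 0.58 (SE 0.11, adjusted p = 7.99e-05, edgeR). Dnajb9, Hsp90b1 and Hyou1, an HSP110-type exchange factor of BiP, fell by 0.56, 0.44 and 0.27 (adjusted p = 0.00364, 0.00256 and 0.00308, edgeR). Without the trend Dnajc3, Dnajb9 and Hsp90b1 were not called, at -0.01, 0.00 and 0.11, and Hyou1 stood at -0.30 (adjusted p = 0.000597, edgeR). Manf, a secreted ER stress protein, had 101, 105, 123, 129 and 106 CPM against 78.5 to 99.5 CPM with oxLDL. It rose by 0.32 (SE 0.09, adjusted p = 0.00376, edgeR), a call lost with scaling by library size alone (adjusted p = 0.278, edgeR).

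Creld2, an ER protein induced by the response, stood 0.18 higher (adjusted p = 0.0838, edgeR), a call lost in 4 of 9 alternatives and in 6 of 10 fits without 1 library (adjusted p up to 0.2, edgeR). Without the trend it was called lower, at -0.24 (adjusted p = 0.00422, edgeR). Hspa5 had 1168, 1151, 1424, 1034 and 1162 CPM with oxLDL + pNaKtide. Replicate 3 was above and the other 4 libraries below the oxLDL range, and the difference of -0.13 log2 units did not pass (SE 0.08, adjusted p = 0.197, edgeR). Without the trend Hspa5 had the other sign and was called higher, at 0.14 (adjusted p = 0.0956, edgeR).

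P4hb had 1736, 1686, 1508, 2006 and 1981 CPM, above each oxLDL library, and rose by 0.46 (SE 0.11, adjusted p = 0.00129, edgeR). Calr rose by 0.44 (SE 0.12, adjusted p = 0.00377, edgeR), with 1783 to 2380 CPM against 1270 to 1754 CPM. Pdia4, another disulfide isomerase, fell by 0.45 (SE 0.09, adjusted p = 0.000312, edgeR), from 318 to 342 CPM with oxLDL to 217 to 294 CPM.

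In translocation, Sec62 fell by 0.60 (SE 0.12, adjusted p = 0.000193, edgeR). It had 70.1, 71.3, 85.5, 57.8 and 53.6 CPM, and replicate 3 overlapped the lowest oxLDL library. Sec61b rose by 0.36 (SE 0.10, adjusted p = 0.00332, edgeR), with 43.1, 40.6, 46.9, 54.3 and 44.6 CPM against 32.5, 35.2, 37.3, 39.6 and 34.4 CPM. Ssr1 and Sec63 fell by 0.31 and 0.24 (adjusted p = 0.00496 and 0.0958, edgeR), and Sec61a1 was not called at 0.14. The call of Sec63 was lost in 7 of 10 fits without 1 library (adjusted p up to 0.346, edgeR), with RLE size factors, with no filter, with the 2 groups alone and by DESeq2. Without the trend Sec62, Sec63 and Ssr1 stood at 0.09, 0.61 and 0.13 and Sec61b at -0.13, so that each had the other sign. Of these, Sec63 was called higher (adjusted p = 1.75e-06, edgeR).

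In ER-associated degradation, Os9 rose by 0.51 (SE 0.13, adjusted p = 0.00186, edgeR), with 138, 140, 144, 187 and 173 CPM, each above the oxLDL libraries. Derl1, a channel component, rose by 0.29 (adjusted p = 0.0027, edgeR) and had 0.34 without the trend, but was not called with scaling by library size alone (adjusted p = 0.361, edgeR). Edem1, a mannosidase-like protein that marks glycoproteins for degradation, had 122, 117, 110, 113 and 115 CPM with oxLDL and 101, 106, 103, 88.7 and 104 CPM with pNaKtide added. It fell by 0.20 (SE 0.07, adjusted p = 0.0245, edgeR), without overlap, but the call was lost without oxLDL + pNaKtide replicate 4 (adjusted p = 0.124, edgeR). With the trend taken out Edem1 was called higher, at 0.19 (adjusted p = 0.00829, edgeR), and Os9 was not called, at 0.18 (adjusted p = 0.111, edgeR).

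Taking out the GC and length trend left 14 members higher and 8 lower (36.3% of all genes called), kept 9 of the 22 calls and turned the sign of 9 called members. Beside Hspa5 and Atf4, calls were gained by Pdia3 (0.25), Pdia6 (0.23), Sec61a1 (0.21), Sel1l (0.31), Derl2 (0.63), Sdf2l1 (-0.76) and Herpud1 (-0.16). Without oxLDL + pNaKtide replicate 4, 18 members were called, beside 41.4% of all genes. Members past the threshold without the trend, in all other alternatives and without any 1 library were Hyou1, Calr, Pdia4, P4hb, Eif2ak3 and Xbp1.

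**Figure D4:**
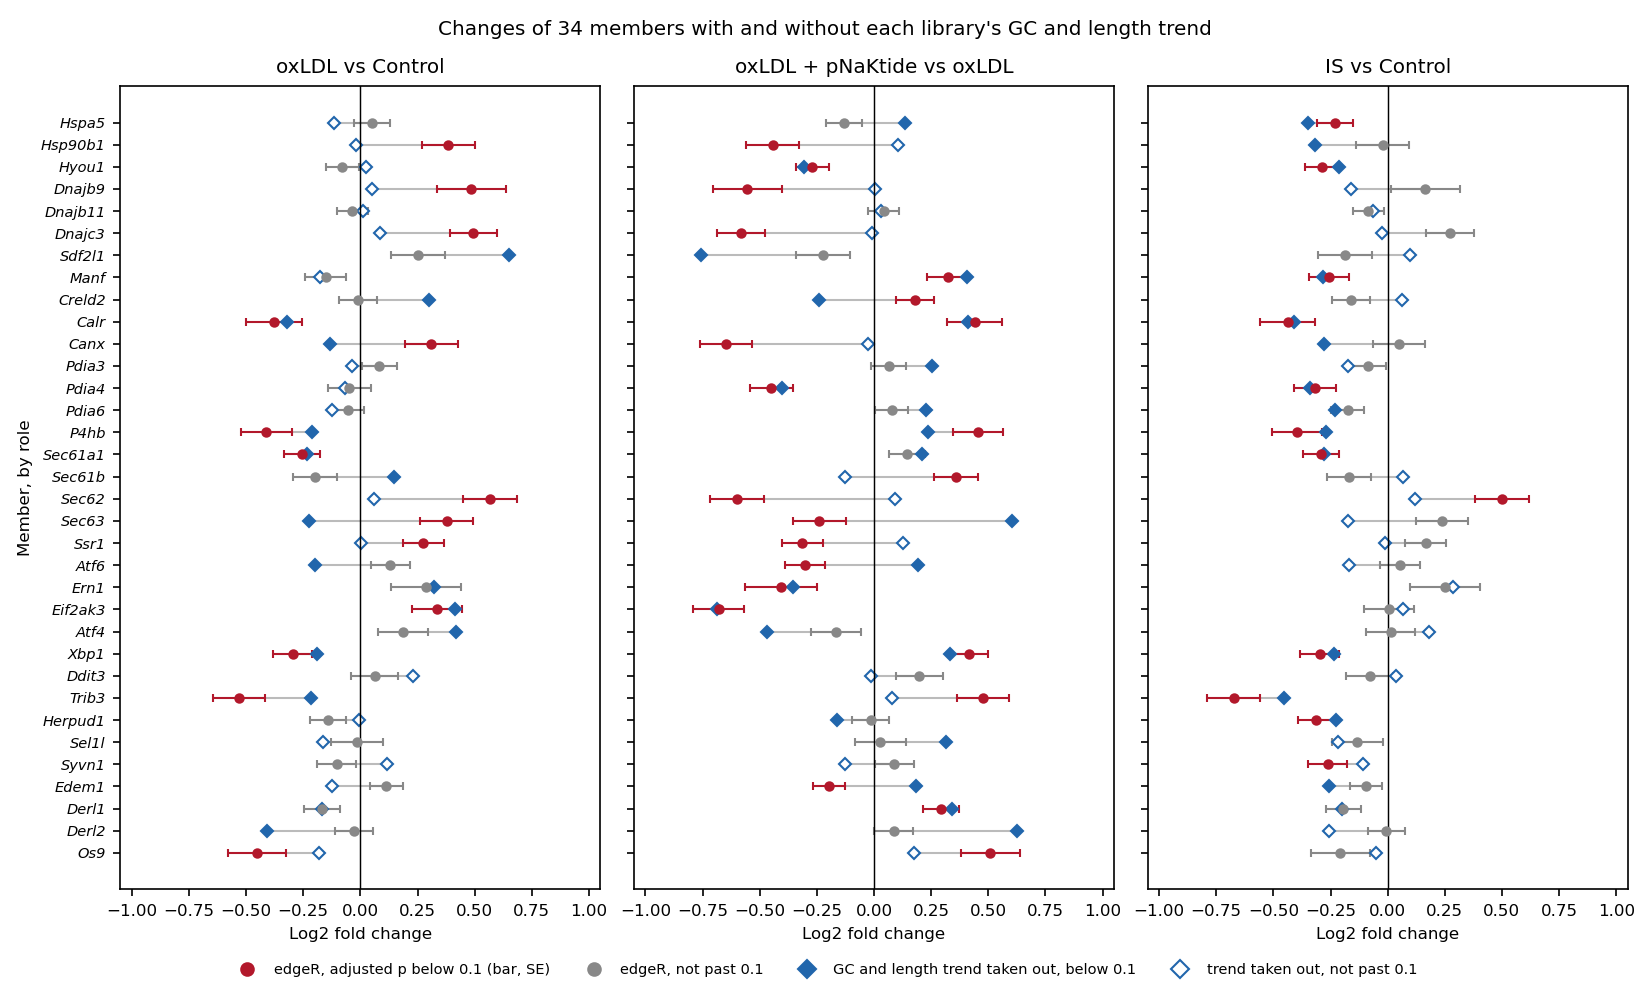
Log2 fold change of the 34 members in 3 comparisons from edgeR (circles with SE, red where the adjusted p is below 0.1) and with each library's GC and length trend taken out (diamonds, filled where below 0.1). Eif2ak3, Calr, P4hb and Xbp1 keep their direction and call in the first and second comparison, P4hb with smaller values (-0.21 for -0.41 and 0.23 for 0.46), while Sec62 and Dnajc3 move to near 0 and Canx to -0.13 and -0.03.

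Whether pNaKtide acted differently with and without oxLDL was tested as an interaction, which uses the Control, pNaKtide, oxLDL and oxLDL + pNaKtide libraries. It passed for 12 members, 8 with a positive and 4 with a negative value, 35.3% of the members beside 24.6% of all genes. With scaling by library size alone (26.2% of all genes called) 5 were positive and 10 negative. Positive values were found for Os9 (0.62), Trib3 (0.57), Calr (0.53), P4hb (0.51), Xbp1 (0.42), Derl1 (0.36), Sec61b (0.34) and Sec61a1 (0.27). Negative values were found for Sec62 (-0.65), Dnajc3 (-0.61), Eif2ak3 (-0.46) and Canx (-0.44), with adjusted p-values of all 12 between 0.0219 and 0.0932 from edgeR. With the GC and length trend taken out 6 of the 12 calls remained, and Sec62 (-0.04), Dnajc3 (-0.11), Canx (0.10), Sec61b (-0.08), Os9 (0.29) and Trib3 (0.17) were not called. Calls were gained by Sec63 (0.46), Pdia3 (0.26), Sel1l (0.34), Derl2 (0.63), Sdf2l1 (-0.75) and Creld2 (-0.30), and 10.96% of all genes were called in that fit. Calr, P4hb and Xbp1 passed under each alternative and without any 1 library. Without pNaKtide replicate 3 the interaction passed for 8 members and 10.5% of all genes, and Canx, Sec61a1, Sec61b and Eif2ak3 were no longer called. It also passed for 8 members without oxLDL + pNaKtide replicate 4 (12.5% of all genes), and for 18 without Control replicate 1 (37.3%). In the same interaction 3 of 10 adipocyte markers were positive and 0 negative, with 2 positive and 1 negative among 9 preadipocyte and fibroblast markers, and their part was not tested.

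pNaKtide alone changed no member against Control by edgeR's test (0 of 34, and 0.00497% of all genes), while 4 members had an unadjusted p below 0.05 (6.12% of all genes) and DESeq2 called 2 (0.283% of all genes). Hyou1 was the member whose groups did not overlap, with 156, 156, 174, 147 and 177 CPM in Control and 118, 118, 128, 138 and 144 CPM with pNaKtide. Its log2 fold change was -0.32 (SE 0.07, adjusted p = 0.322, edgeR). The groups did not overlap for 0.934% of all genes.

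Against Control, cells with oxLDL + pNaKtide had 3 members lower and 0 higher, beside 5.2% of all genes called (2.04% higher and 3.16% lower). Pdia4 fell by 0.50 (SE 0.09, adjusted p = 0.00394, edgeR), from 296, 311, 390, 323 and 373 CPM in Control to 234, 234, 294, 217 and 220 CPM. Hyou1 fell by 0.35 (SE 0.07, adjusted p = 0.00751, edgeR), to 126, 122, 142, 122 and 125 CPM. Eif2ak3 fell by 0.35 as well (SE 0.11, adjusted p = 0.0925, edgeR), a call lost in 5 of 9 alternatives and in 5 of 10 fits without 1 library (adjusted p up to 0.32, edgeR). These 3 were the members without overlap, where 4.03% of all genes had none. In a fit of the 2 groups alone 0 members were called, by DESeq2 2 higher and 4 lower, and without the trend 4 higher and 3 lower, with Eif2ak3 not called (adjusted p = 0.135, edgeR). These fits called 0.0547%, 9.04% and 9.80% of all genes. Without oxLDL + pNaKtide replicate 4, 2 members were called, beside 2.51% of all genes.

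The third question concerned IS. With IS 11 members fell and 1 rose against Control, 35.3% of the members beside 7.94% of all genes (4.45% higher and 3.49% lower). The median log2 fold change of the members was -0.15 and that of all genes 0.03. In the same comparison 4 of 10 adipocyte markers and 3 of 9 preadipocyte and fibroblast markers were lower, and their part was not tested.

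BiP was among the genes that fell. Hspa5 had 1074, 1076, 1064, 1058 and 1075 CPM with IS, below each Control library, a fall of 0.23 (SE 0.08, adjusted p = 0.094, edgeR). Hyou1 fell by 0.29 (SE 0.07, adjusted p = 0.0489, edgeR), to 129, 128, 137, 128 and 140 CPM, and Manf by 0.26 (adjusted p = 0.0931, edgeR). Among the lectins and isomerases, Calr fell by 0.44, P4hb by 0.40 and Pdia4 by 0.32 (adjusted p = 0.0636, 0.0645 and 0.0728, edgeR).

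Trib3 had the smallest p-value. It measured 30.4, 33.8, 32.2, 36.5 and 38.3 CPM with IS, so that IS replicate 5 met Control replicate 1 at the edge, and fell by 0.67 (SE 0.11, adjusted p = 0.00768, edgeR). Xbp1 fell by 0.30 (SE 0.09, adjusted p = 0.0694, edgeR), with 220, 215, 213, 248 and 201 CPM. Atf4 had 189, 189, 173, 123 and 176 CPM and Ddit3 48.3, 49.5, 44.3, 42.8 and 51.0 CPM, and both overlapped Control, at 0.01 and -0.08 (adjusted p = 0.959 and 0.665, edgeR). Eif2ak3 stood at 0.01 (adjusted p = 0.977, edgeR).

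In the remaining groups, Sec61a1 fell by 0.29 (adjusted p = 0.0614, edgeR) and Sec62 rose by 0.50 (SE 0.12, adjusted p = 0.047, edgeR). Sec62, the member that rose, stood at 0.12 and was not called without the GC and length trend (adjusted p = 0.336, edgeR). Herpud1, a membrane protein of the degradation complex that is a classical target of the response, fell by 0.31, and Syvn1, the ubiquitin ligase HRD1, by 0.26 (adjusted p = 0.0543 and 0.0851, edgeR). For Hspa5, Hyou1, Pdia4, Herpud1 and Syvn1 the groups did not overlap, 5 members beside 1.81% of all genes.

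The number of members called with IS changed with single libraries, and 20 were called without Control replicate 1 or without IS replicate 4, and 23 without both (6 higher and 17 lower). In the same 3 fits 33.2%, 34.5% and 45.4% of all genes were called. The number of members was 1 without Control replicate 2 or 5 or IS replicate 1, 2 or 3, 2 without Control replicate 4, 3 without Control replicate 3 and 4 without IS replicate 5. In the same order, 0.0745% to 0.214%, 0.189%, 1.51% and 0.432% of all genes were called. A fit of the 2 groups alone called 0 members, and with the GC and length trend taken out 15 fell and 0 rose (4.19% of all genes called), which included 10 of the 12 and, newly, Hsp90b1, Canx, Pdia6, Edem1 and Derl1. Scaling by library size alone called 2 members higher and 5 lower, beside 12.6% of all genes.

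**Figure D5:**
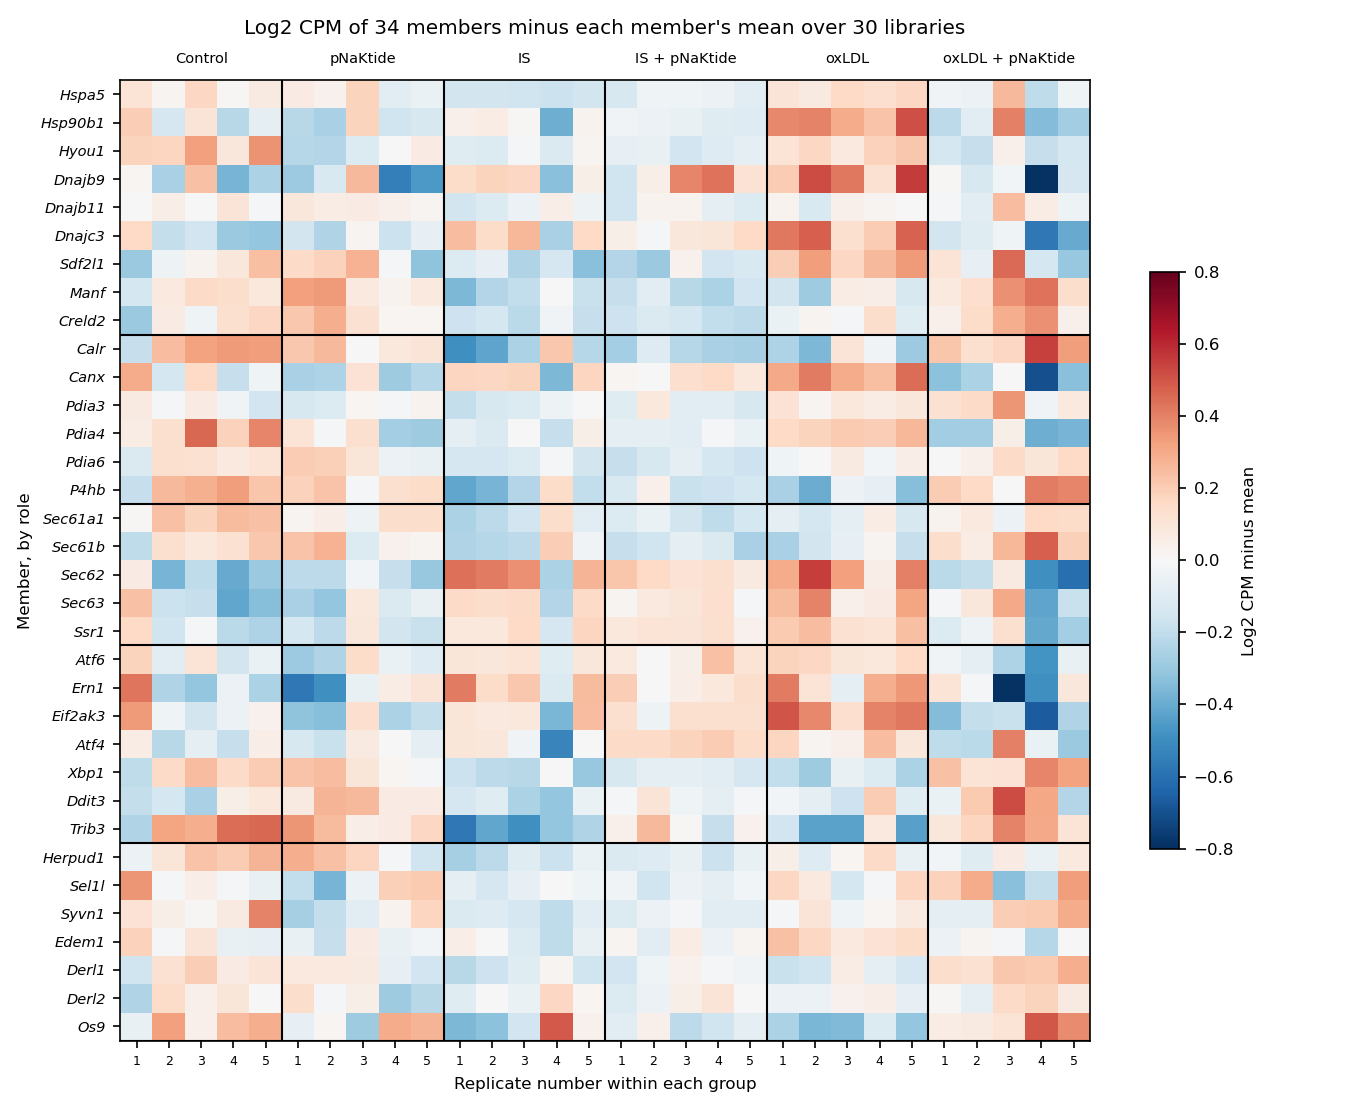
Log2 CPM of the 34 members (rows, by role) in the 30 libraries (columns, by group and replicate) minus each member's mean over all libraries, red for higher and blue for lower. Control replicate 1 and IS replicate 4 differ from the other libraries of their groups in Calr, Canx, P4hb and Sec62.

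With pNaKtide added to IS, no member passed against IS alone (0 of 34 by edgeR, and 0% of all genes), and 2 members had an unadjusted p below 0.05 (2.8% of all genes). DESeq2 called 0, and 1 was called without the GC and length trend. That member was Trib3, with 46.5, 54.2, 45.6, 39.7 and 46.4 CPM with IS + pNaKtide, each above the IS libraries, and it stood 0.44 log2 units higher (SE 0.11, adjusted p = 0.573, edgeR, and 0.0558 without the trend). Hspa5 had 1089, 1164, 1163, 1152 and 1118 CPM and Atf4 197, 196, 201, 204 and 196 CPM, also above each IS library but at log2 fold changes of 0.09 and 0.22 that did not pass. Groups without overlap were found for these 3 members and for 0.834% of all genes.

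Against Control, IS + pNaKtide had 2 members lower and 0 higher, beside 0.358% of all genes called and 0.218% lower. Hyou1 fell by 0.32 (SE 0.07, adjusted p = 0.0664, edgeR), to 132, 132, 124, 129 and 131 CPM. Sec61a1 also fell by 0.32 (SE 0.08, adjusted p = 0.0915, edgeR), to 300, 313, 293, 281 and 294 CPM. The count was 18 without Control replicate 1, 1 without Control replicate 4 and 0 without Control replicate 2, 3 or 5 or any 1 library of IS + pNaKtide. In these fits 26.7%, 0.0646% and at most 0.104% of all genes were called. By DESeq2 12 members were called and without the GC and length trend 10, beside 7.38% and 2.17% of all genes. For 8 members the groups did not overlap, beside 3.79% of all genes.

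Hyou1 had lower means than Control in each of the 4 groups with pNaKtide or IS, which share the Control libraries: 129 ± 11.97 CPM with pNaKtide, 132 ± 5.80 with IS, 130 ± 3.30 with IS + pNaKtide and 127 ± 8.44 with oxLDL + pNaKtide, against 162 ± 12.8 in Control and 153 ± 6.01 with oxLDL (SD, n = 5). The call was made in 3 of these 4 comparisons. Leaving out 1 library, it passed in 4 of 10 fits with IS and in 2 of 10 with IS + pNaKtide. Other members also had lower means than Control in these 4 groups. Among them was Pdia4, with 274, 272, 272 and 240 CPM in the same order, against 339 in Control and 327 with oxLDL.

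The direct comparison of IS with oxLDL called no member (0 of 34 by edgeR, and 0.0149% of all genes, 0.00993% higher). At an unadjusted p below 0.05 there were 12 members beside 5.2% of all genes, and DESeq2 called 5 beside 0.204% of all genes. Groups without overlap were found for 9 members, beside 1.49% of all genes, and the members' median log2 fold change was -0.14. Hspa5 stood at -0.28 (SE 0.08, adjusted p = 0.526, edgeR) and Hsp90b1 at -0.41 (SE 0.12, adjusted p = 0.529, edgeR).

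The change with pNaKtide was set between the toxins by the difference between its change under IS and under oxLDL. This difference passed for 18 members, 12 positive and 6 negative, or 52.9%, beside 29.3% of all genes. With scaling by library size alone (32.1% of all genes called) 15 were positive and 1 negative. With the GC and length trend taken out 6 were positive and 9 negative, 7 of the 18 calls remained, 6 called members changed sign and 17.3% of all genes were called. In the same difference 2 of 10 adipocyte markers were negative and 0 positive, with 2 in each direction among 9 preadipocyte and fibroblast markers, and their part was not tested. Eif2ak3 differed by 0.73 (SE 0.16, adjusted p = 0.00964, edgeR) and Pdia4 by 0.45 (SE 0.13, adjusted p = 0.0199, edgeR), and both passed under each alternative and without any 1 library. The count was 8 without IS replicate 4, where Hsp90b1, Hyou1, Manf, Calr, P4hb, Ssr1, Atf6, Atf4, Xbp1 and Edem1 were no longer called (adjusted p between 0.101 and 0.221, edgeR). It was also 8 without oxLDL + pNaKtide replicate 4, and 11 without oxLDL replicate 2 or 5 or oxLDL + pNaKtide replicate 5. The share of all genes called was 18.8% without IS replicate 4, 19.2% without oxLDL + pNaKtide replicate 4 and 22.8% to 24.9% in the fits with 11. The interaction of IS and pNaKtide passed for no member (0 of 34 by edgeR, and 0% of all genes), with 4 members at an unadjusted p below 0.05 (3.07% of all genes) and 0 by DESeq2.

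Of the 8 members with an ERSE in the promoter, 3 rose and 1 fell with oxLDL, where 36% of all genes were called. Hsp90b1, Dnajc3 and Canx rose, Calr fell, and Hspa5, Pdia6, Creld2 and Syvn1 were not called. With the GC and length trend taken out Hsp90b1 and Dnajc3 were not called, at -0.02 and 0.09, Canx at -0.13 and Calr at -0.32 were lower, and Creld2 at 0.30 was higher. In that fit 19.0% of all genes were called. With IS, Hspa5, Calr and Syvn1 fell and the other 5 were not called, where 7.94% of all genes were called. The call of Syvn1 was lost in 4 of 9 alternatives, among them the fit without the trend (-0.11, adjusted p = 0.451, edgeR). The call of Hspa5 was lost in 3 of 9 alternatives, and those of Hspa5, Calr and Syvn1 in 8 of 10 fits without 1 library. Without the trend Hsp90b1, Canx and Pdia6 were called lower with IS, at -0.32, -0.28 and -0.23, where 4.19% of all genes were called. Herpud1, with the ERSE-II, fell with IS, a call that passed in 7 of 9 alternatives and in 3 of 10 fits without 1 library. Dnajb11, whose match lay after the start and is not shown, was not called with oxLDL or with IS. Trib3 and Herpud1, which hold the letters searched for ATF4, both fell with IS, and Atf4 stood at 0.01. Those letters were in 6.90% of the members with an entry and in 4.51% of all genes.

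The wider pathway was described with 108 other genes in 5 lists, all of which passed the filter. With oxLDL 26 rose and 34 fell, where 36% of all genes were called. With IS 6 rose and 10 fell (7.94% of all genes), and with oxLDL + pNaKtide against oxLDL 38 rose and 37 fell (48.3% of all genes). Their median log2 fold changes were -0.05, -0.07 and 0.00, beside 0.04, 0.03 and -0.09 over all genes. When the GC and length trend was taken out, the counts were 7 higher and 34 lower with oxLDL, 0 and 12 with IS, and 41 and 21 with oxLDL + pNaKtide against oxLDL. In the same order, 19.0%, 4.19% and 36.3% of all genes were called in that fit. With pNaKtide alone and with IS + pNaKtide against IS 0 were called.

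Examples are from the 2 genes with the smallest adjusted p per list and direction in the comparison of oxLDL + pNaKtide with oxLDL. Of 28 other folding and redox genes, 8 rose and 9 fell. Sil1, the nucleotide exchange factor of BiP, rose by 0.65 (15.7 ± 1.56 to 24.7 ± 2.50 CPM, adjusted p = 5.87e-05, edgeR) while Hspa13, an HSP70 relative of the ER, fell by 0.92 and Tmx3, a membrane thioredoxin, by 1.47 (adjusted p = 9.15e-06 and 3.54e-05, edgeR). Without the trend these 3 stood at 0.49, -0.26 and -0.32.

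Of 19 other targeting, translocon and signal peptidase genes, 7 rose and 7 fell. Spcs2 and Spcs3, both subunits of the signal peptidase, rose by 0.28 and fell by 0.93 (adjusted p = 0.00068 and 0.000368, edgeR), and they stood at 0.58 and -0.18 without the trend. The translocon-associated Ssr4 rose by 0.58 and its partner Ssr3 fell by 0.76 (adjusted p = 0.000842 and 0.000529, edgeR), with 0.46 and 0.04 when the trend was taken out. Of 18 genes of N-glycosylation and glycan trimming, 7 rose and 5 fell. Prkcsh, the β subunit of glucosidase II, rose by 0.72 and Rpn2, a subunit of the oligosaccharyltransferase, by 0.59 (adjusted p = 9.49e-05 and 0.000109, edgeR), while the cargo receptor Lman1 fell by 0.58 (adjusted p = 1.81e-05, edgeR). Without the trend these 3 stood at 0.50, 0.51 and -0.16.

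Of 22 other genes of ER-associated degradation, 8 rose and 9 fell. Aup1 rose by 0.74 and Erlin1 fell by 0.74 (adjusted p = 4.34e-05 and 3.33e-05, edgeR), or 0.42 and -0.42 without the trend. Of 21 other stress response regulators, 8 rose and 7 fell. Atf5, a relative of ATF4, rose by 0.79 (227 ± 30.3 to 392 ± 68.6 CPM, adjusted p = 7.11e-05, edgeR), while Eif2ak2, the RNA-activated kinase PKR, fell by 0.67 and Mbtps2, a protease that cleaves ATF6, by 1.02 (adjusted p = 0.000336 and 0.000638, edgeR). Without the trend they stood at 0.33, -0.21 and -0.26.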

How the data were processed

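From stranded mRNA libraries the authors trimmed read pairs with Trimmomatic 0.38, aligned them to GRCm38 with HISAT2 2.1.0 and counted reads per gene with GenomicAlignments, and deposited raw counts without pooling. The deposited FPKM values are those counts, divided by 1 size factor per library and 1 value per gene by the authors, and were used for levels between genes. Sources used here do not give the annotation release, strand setting or lengths, and overlapping genes may share counts. The deposited normalized counts were not used.

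For genes with more than 14 counts summed over 30 libraries, edgeR 4.0.16 was fitted to all 6 groups after TMM scaling (robust quasi-likelihood test, R 4.3.3), with two-sided p-values adjusted by the BH method over all genes and a threshold of 0.1. The common biological coefficient of variation was 14.0%. A log2 CPM used a prior count of 2, and plotted CPM none. No 2 libraries of a group were duplicates (chi-square per degree of freedom of at least 1.28 over 60 pairs). Named genes were Hspa5, Xbp1, Atf4, Ddit3 and, per role, the top member by adjusted p, higher and lower, in both oxLDL comparisons, as well as at most 2 genes per direction and wider list. Hyou1, Pdia4, Calr and Hsp90b1 were shown in more depth after their values were seen. The members and lists were chosen with earlier results of these data known. Gene positions, GC content and lengths are from GENCODE M21. Alternatives were DESeq2 1.42.0, RLE factors, library size alone, other count filters, an adjusted p of 0.05, a replicate block, the compared groups alone, offsets for each library's GC and length trend (mgcv 1.9.3), and leaving out libraries. The edgeR test was run on counts simulated for the oxLDL and Control libraries, without a GC trend. The fit of all 6 groups, the interactions, the trend offsets and DESeq2 were not simulated.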

Additional observations from a re-analysis of the deposited data

Results flagged for a closer look

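Single libraries stood apart within their group of 5 by the gap to the nearest other library. In IS replicate 4, Dnajc3 was at 50.5, Canx at 243, Sec62 at 68.1 and Atf4 at 123 CPM, each below the other IS libraries. In pNaKtide replicate 3, Canx at 338 and Eif2ak3 at 25.3 CPM were above the others. In Control replicate 1, P4hb at 1329 and Xbp1 at 215 CPM were below the others. In IS + pNaKtide replicate 2, P4hb at 1555 CPM was above and Eif2ak3 at 22.5 CPM below the others. Over all 34 members 28 of 204 groups had such a library (13.7%), where chance gives about 1 in 20, and 9 of them were in IS replicate 4 and 5 in Control replicate 1. These libraries also differ from their groups in the slope over GC content, and the part of that slope was not tested.

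The change with pNaKtide differed between cells with and without oxLDL, by edgeR's interaction test, for Sec62 (-0.65), Dnajc3 (-0.61), Eif2ak3 (-0.46), Canx (-0.44), Sec61a1 (0.27), Sec61b (0.34), Derl1 (0.36), Xbp1 (0.42), P4hb (0.51), Calr (0.53), Trib3 (0.57) and Os9 (0.62, all log2 differences). Without pNaKtide replicate 3, Canx, Sec61a1, Sec61b and Eif2ak3 were not called. With the GC and length trend taken out, Sec62 (-0.04), Dnajc3 (-0.115), Canx (0.10), Sec61b (-0.08), Os9 (0.29) and Trib3 (0.17) were not called.

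The change with pNaKtide also differed between IS and oxLDL, given as the change under IS minus that under oxLDL on the log2 scale. It was positive for Eif2ak3 (0.73), Dnajb9 (0.68), Canx (0.65), Dnajc3 (0.53), Sec62 (0.47), Pdia4 (0.45), Hsp90b1 (0.42), Atf4 (0.39), Atf6 (0.34), Ssr1 (0.33), Edem1 (0.25) and Hyou1 (0.24). It was negative for Os9 (-0.57), Calr (-0.45), Sec61b (-0.42), P4hb (-0.37), Xbp1 (-0.34) and Manf (-0.31). Without IS replicate 4 only Eif2ak3, Dnajb9, Canx, Dnajc3, Sec62, Pdia4, Os9 and Sec61b of these 18 were called. Of these 8, only Eif2ak3 and Pdia4 were also called with the GC and length trend taken out of all libraries, where the other 6 stood at -0.25 to 0.17. In cells with IS, pNaKtide changed no member past the threshold by edgeR, with 2 members at an unadjusted p below 0.05 and 0 called by DESeq2.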

How the results depend on the processing

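Counts of members called moved by more than 1.5 times under some settings, given with the share of all genes called in the same fit in brackets. With oxLDL against Control, 14 became 22 with Control replicate 1 and IS replicate 4 both left out (47.6%). With IS, 12 became 3 at an adjusted p of 0.05 (0.646%), 7 by library size alone (12.6%) and 6 without a filter (1.86%). It became 0 in the fit of the compared groups (0%) and 23 without both libraries (45.4%). With pNaKtide 0 became 2 by DESeq2 (0.283%). With oxLDL + pNaKtide against Control, 3 became 6 by library size alone (9.77%) and by DESeq2 (9.04%), and 5 with more than 14 counts in every library (14.4%). It became 0 in the fit of the compared groups (0.0547%) and 7 without the GC and length trend (9.80%). With IS + pNaKtide against Control, 2 became 0 at an adjusted p of 0.05 (0.0397%), by library size alone (0.149%) and without a filter (0.146%). It became 6 with more than 14 counts in every library (2.70%), 6 with the replicate block (6.64%) and 7 in the fit of the compared groups (5.72%). Without the trend it became 10 (2.17%), by DESeq2 12 (7.38%) and without both libraries 20 (32.4%). Without the trend 0 became 1 for IS + pNaKtide against IS (0.0348%) and for IS against oxLDL (0.0995%), and the latter gave 5 by DESeq2 (0.204%). The interaction of oxLDL and pNaKtide gave 19 in place of 12 without both libraries (40.0%). The difference between the changes with pNaKtide gave 10 in place of 18 at an adjusted p of 0.05 (20.1%). The cause of these shifts was not tested.

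Leaving out 1 library at a time, the counts ranged from 13 to 20 (oxLDL), 1 to 20 (IS), 18 to 24 (oxLDL + pNaKtide against oxLDL), 2 to 4 (the same against Control), 0 to 18 (IS + pNaKtide against Control), 8 to 18 (interaction with oxLDL) and 8 to 19 (the difference between toxins). In the same order, the share of all genes called ranged from 24.7% to 45.9%, 0.0745% to 34.5%, 41.4% to 48.7%, 2.51% to 6.46%, 0.00993% to 26.7%, 10.5% to 37.3% and 18.8% to 32.7%. Values of called members turned sign without the GC and length trend. With oxLDL these were Hsp90b1 (-0.0197), Canx (-0.13) and Sec63 (-0.22). With pNaKtide added to oxLDL they were Hsp90b1 (0.11), Dnajb9 (0.00277), Creld2 (-0.24), Sec61b (-0.13), Sec62 (0.0917), Sec63 (0.61), Ssr1 (0.13), Atf6 (0.19) and Edem1 (0.185), and Creld2 was -0.044 by library size alone. In the interaction they were Canx (0.10) and Sec61b (-0.0769), and in the difference between toxins Hsp90b1 (-0.10), Sec61b (0.0268), Sec62 (-0.16), Ssr1 (-0.0796), Atf6 (-0.13) and Edem1 (-0.12).

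Whether same-numbered libraries share more than a number is not said, and the main fit did not use the number. The deviations of same-numbered libraries correlated by -0.66 to 0.79, above 0.1 in 37 of 75 pairs. With the replicate block 17, 14 and 22 members were called with oxLDL, with IS and with oxLDL + pNaKtide against oxLDL. In these fits 38.8%, 17.0% and 49.6% of all genes were called, beside 36%, 7.94% and 48.3% without the block. In 22 of the 75 a library correlated best with its own number.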
